A study of Mus musculus with 3072 samples.

Results

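Of 1289 single bone marrow wells sorted as MkP that passed the filters, 29.2% held transcripts of both Klf1 and Itga2b at 50 CPM or more. CPM is the read count of a gene per 1000000 counts of the well. These wells numbered 49, 37, 42 and 61 in control mice 1 to 4 and 54, 44, 45 and 45 in depleted mice 1 to 4. Klf1 encodes an erythroid transcription factor, and Itga2b encodes the integrin chain CD41 of megakaryocytes and platelets. The wells with both are called Klf1+ Itga2b+ wells. The class was set against the 838 MkP wells of the same mice with Itga2b at or above and Klf1 below the threshold, called the other Itga2b+ wells. A further 51 MkP wells had Klf1 without Itga2b, and 23 had neither.

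Megakaryocytes, which shed platelets, and red cells arise from shared progenitors. Klf1 binds CACCC motifs and activates genes of red cell production, and it acts against Fli1, an Ets family factor that drives megakaryocyte genes. Gata1 serves both lineages, and cells that hold transcripts of both programs are a known feature of progenitors that have not settled on either.

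The series holds 3072 wells of 8 mice. All 8 were labelled C57BL/6 with genotype WT and carried transplanted stem cells with clonal barcodes. In 4 control mice marrow was taken at week 32 after transplantation, and in 4 mice labelled platelet_depleted at week 28, so treatment and week cannot be told apart; the depleting agent is not given in the labels. Besides MkP, wells were sorted as HSC and CFU, names that the labels do not spell out, and 16 wells of each per mouse served as reference points. Mice were told apart by the code that opens a sample's title; the labels do not say that this code is an animal, and p-values measure the spread between mice so defined. Whether any host cells remained among the sorted cells is not given in the labels.

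Few wells lay near the Klf1 threshold. In the Klf1+ Itga2b+ wells Klf1 ran from 50.6 to 1109 CPM with a median of 130 CPM, values that the rule itself set. In the other Itga2b+ wells the highest value was 48.7 CPM, and 58.7% of the 838 had no Klf1 count. Only 22 wells lay less than 10 CPM above the Klf1 threshold and 7 lay less than 10 CPM below it. Itga2b had a median of 946 CPM in the Klf1+ Itga2b+ wells and 1364 CPM in the other Itga2b+ wells. At the Itga2b threshold, 1 well lay less than 10 CPM above with 59.6 CPM, and the nearest Klf1 well below it had 49.97 CPM.

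At the medians, CFU wells had more Klf1 and less Itga2b than the Klf1+ Itga2b+ wells, and HSC wells had less of both. The median CFU well had 690 CPM of Klf1 and 0.69 CPM of Itga2b, and 98.4% of CFU wells reached the Klf1 threshold. The median HSC well had 0.54 CPM of Klf1 and 10.7 CPM of Itga2b, and 44.5% of HSC wells reached the Itga2b threshold. Both thresholds were met by 4 CFU wells and 2 HSC wells. Only 12 Klf1+ Itga2b+ wells reached 559.2 CPM of Klf1, the lower quartile of CFU.

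The promoters of Klf1, of Ermap and Tspo2, which were higher in the Klf1+ Itga2b+ wells, and of Pf4, which was lower, are shown because both motifs named here belong to the factors that define these lineages. Each is the 250 bases before the RefSeq start of the gene (GRCm38.p6), read 5′ to 3′ on the strand of the gene. Klf1 lies at chr8:84901732-84901981 (plus strand), Ermap at chr4:119189996-119190245 (minus strand), Tspo2 at chr17:48451502-48451751 (minus strand) and Pf4 at chr5:90772185-90772434 (plus strand). Capitals mark GATAA, a core of GATA factor sites, or its complement TTATC, and CACCC, a core of Klf sites, or its complement GGGTG.
Klf1: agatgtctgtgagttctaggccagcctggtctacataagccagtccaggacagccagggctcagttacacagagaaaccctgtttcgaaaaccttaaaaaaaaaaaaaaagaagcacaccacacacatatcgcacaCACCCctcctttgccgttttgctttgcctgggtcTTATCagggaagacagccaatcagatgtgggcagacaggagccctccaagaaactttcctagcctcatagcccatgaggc
Ermap: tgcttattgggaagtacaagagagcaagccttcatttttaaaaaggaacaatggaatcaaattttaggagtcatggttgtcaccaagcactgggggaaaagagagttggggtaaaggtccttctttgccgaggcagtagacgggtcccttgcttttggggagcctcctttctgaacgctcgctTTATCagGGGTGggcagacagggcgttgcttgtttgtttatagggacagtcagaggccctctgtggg
Tspo2: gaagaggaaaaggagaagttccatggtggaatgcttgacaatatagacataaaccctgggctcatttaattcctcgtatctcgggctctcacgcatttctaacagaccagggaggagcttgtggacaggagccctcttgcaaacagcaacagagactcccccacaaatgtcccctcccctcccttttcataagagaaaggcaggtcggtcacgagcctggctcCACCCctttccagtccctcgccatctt
Pf4: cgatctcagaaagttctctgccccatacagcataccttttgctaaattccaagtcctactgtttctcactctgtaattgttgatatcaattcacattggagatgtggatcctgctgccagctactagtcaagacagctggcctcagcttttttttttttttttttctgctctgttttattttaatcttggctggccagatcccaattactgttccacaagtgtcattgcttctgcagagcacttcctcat
Klf1 and Ermap each held 1 match of each motif, Tspo2 held 1 CACCC match and no GATAA match, and Pf4 held neither in this window. The window of Itga2b, the other rule gene, held neither motif and is not shown. Of 32851 RefSeq promoter windows of this length, 22.6% held GATAA and 52.01% held CACCC on either strand, and no match of one overlaps a match of the other in the sequences shown. A match describes the letters and is not a bound site.

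The Klf1+ Itga2b+ wells carried more early erythroid and fewer platelet transcripts than the other Itga2b+ wells of the same mice. Car1, Apoe, Steap3, Ikzf1, Scin and Trib2 were higher in all 8 mice, and Pf4, Vwf, Itgb3 and Selp were lower in all 8 mice. Counts were summed per mouse and class and tested with edgeR's quasi-likelihood test with the mouse as a block. Of 15492 genes, 1.43% passed at an adjusted p of 0.05. Of all tested, 120 genes (0.775%) were higher and 0.652% lower, and 2104 (13.6%) had an unadjusted p under 0.05. DESeq2 called 1376 (8.88%). Klf1 and Itga2b chose the wells and were left out of these counts. The gene lists counted below were chosen with earlier results of these data known, and no list was tested as a set. In a sum, fewer wells with a transcript and less of it per well cannot be told apart; shares of wells are given further on. The median log2 fold change over all genes was -0.05.

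The count depended on the wells and mice that entered. It was 49 genes, 0.33% of those tested, when both classes were restricted to wells with 500 CPM of Itga2b or more, a setting chosen after seeing the data. In that setting Car1, Steap3, Ikzf1, Scin, Trib2 and Selp did not pass (edgeR adjusted p = 0.0564, 0.111, 0.102, 0.0695, 0.198 and 0.0573). Apoe, Pf4, Vwf and Itgb3 still passed there. The share of genes called was 0.525%, 0.634% and 0.669% without control mouse 1, 3 or 4, and 0.467%, 0.842% and 0.487% without depleted mouse 1, 2 or 4.

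Of 20 erythroid transcription factors other than Klf1, 4 rose, none fell and 16 did not pass, with a median log2 fold change of 0.16. Gata1, the GATA factor needed by both lineages, ran from 252.3 to 402.4 CPM (median 293.3) in the Klf1+ Itga2b+ wells and from 190 to 260 CPM (median 215.4) in the others. It was higher in 8 of 8 mice although the ranges overlapped, with a log2 fold change of 0.46 (SE 0.08, edgeR adjusted p = 0.0377). Ikzf1, which encodes the zinc finger factor Ikaros, ran from 86.7 to 190 CPM against 52.7 to 117.4 CPM (log2 fold change 0.82, SE 0.09, adjusted p = 0.00458). Myb, a factor of progenitor growth, ran from 177.6 to 275.4 CPM against 97.6 to 183.6 CPM (log2 fold change 0.61, SE 0.09). Bcl11a, a repressor of fetal globin, ran from 115.8 to 178.3 CPM against 83.5 to 106.05 CPM, with no overlap (log2 fold change 0.59, SE 0.09). Gfi1b, a repressor used in both lineages, did not pass, with a log2 fold change of -0.26 (SE 0.12, adjusted p = 0.398). With 500 CPM of Itga2b or more, none of the 20 passed. Without depleted mouse 1 or 4, 2 and 1 of the 20 passed, and without each of the others 3 or 4. The call of Gata1 was lost when any 1 mouse except depleted mouse 2 was left out (adjusted p of 0.0559 to 0.103).

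Of 24 early erythroid genes tested, 9 rose and none fell, 23 had a positive fold change, and the median log2 fold change was 0.91. Car1, carbonic anhydrase 1 of red cells, ran from 60.8 to 460 CPM (median 253.8) in the Klf1+ Itga2b+ wells and from 9.20 to 36.8 CPM (median 14.7) in the others. The classes did not overlap, and control mouse 3 had the lowest Car1 of the Klf1+ Itga2b+ sums. The log2 fold change was 4.01 (SE 0.42, adjusted p = 0.00319).

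Apoe, which encodes a lipid carrier protein, was the most abundant of the 9, at 1233 to 2566 CPM (median 1953) against 766.8 to 1227 CPM (median 990). The classes did not overlap, and the log2 fold change was 0.95 (SE 0.11, adjusted p = 0.00458). Apoe was not a mark of CFU here: at 50 CPM or more it was in 25% of CFU wells. The shares were 95.3% in HSC wells and 93.3% in the other Itga2b+ wells. Ermap, an erythroblast membrane protein, ran from 0.59 to 14.3 CPM against 0.13 to 0.77 CPM and was higher in 7 of 8 mice (log2 fold change 4.47, SE 0.74). Tspo2, a membrane protein of erythroid cells, ran from 4.25 to 16.96 CPM against 0.06 to 2.05 CPM (log2 fold change 4.03, SE 0.66). Atp1b2, a subunit of the sodium pump, ran from 2.75 to 47.1 CPM against 0.39 to 5.204 CPM (log2 fold change 3.12, SE 0.53). Ces2g, a carboxylesterase, ran from 43.5 to 104.4 CPM against 34.3 to 61.6 CPM (log2 fold change 0.88, SE 0.13). Epor, the erythropoietin receptor, did not pass, at 43.1 to 77.98 CPM against 39.8 to 59.8 CPM (log2 fold change 0.36, SE 0.12, adjusted p = 0.197).

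Fewer genes of this group passed when wells with less than 500 CPM of Itga2b were left out. The Klf1+ Itga2b+ wells left out had a median Klf1 of 236.2 CPM, against 117.7 CPM in those kept. Itga2b level, Klf1 level and the number of wells cannot be told apart in this setting. With 500 CPM of Itga2b or more, 1 early erythroid gene passed instead of 9, the log2 fold change of Car1 was 2.31 (adjusted p = 0.0564) and that of Ermap 0.13 (adjusted p = 0.971), while that of Apoe still passed at an adjusted p of 0.024. Without 1 mouse, 3 to 7 of the group passed: Car1 and Apoe kept their calls in all 8 omissions, Ermap lost it in 6, Tspo2 and Atp1b2 in 5 each and Ces2g in 1.

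Few genes of later red cell production passed the test. None of 13 heme synthesis genes and none of 4 hemoglobin genes passed, while 4 and 0 of them had an unadjusted p under 0.05. Only those 4 of 10 listed hemoglobin genes could be tested. The hemoglobin list summed to a median of 7.56 CPM against 4.21 CPM, low levels that limit this test. DESeq2 called 1 heme synthesis gene higher and 1 lower and no hemoglobin gene. Hba-a1, an alpha globin whose reads may be shared with its near-identical copy Hba-a2, stood at 1.39 to 12.5 CPM against 0.54 to 22.7 CPM. Alas2, the erythroid enzyme that opens heme synthesis, averaged 0.82 CPM against 0.60 CPM. Of 14 iron handling genes, Steap3 alone passed: this ferrireductase of iron uptake ran from 62.1 to 95.6 CPM against 28.9 to 51.3 CPM, with a log2 fold change of 0.96 (SE 0.10, adjusted p = 0.00291). Of 11 red cell membrane genes, the urea transporter Slc14a1 alone passed, and it fell, at 600.5 ± 152.3 CPM against 784 ± 126.5 CPM (SD, n = 8 mice; log2 fold change -0.40, SE 0.08, adjusted p = 0.0444). That call was lost in 7 of the 8 omissions of a mouse (adjusted p up to 0.122).

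Platelet genes were mostly lower, in a list chosen with earlier results of these data known and not tested as a set. Of 36 megakaryocyte and platelet genes tested, 15 fell and none rose, 32 had a negative fold change, and the median log2 fold change was -0.74. Their summed level was lower in the Klf1+ Itga2b+ wells of all 8 mice, at 4222 to 6972 CPM (median 5622) against 8274 to 12214 CPM (median 9433). Pf4, platelet factor 4 of the alpha granule, ran from 526.4 to 1708 CPM (median 966) against 1817 to 4955 CPM (median 2562). The classes did not overlap, and the log2 fold change was -1.56 (SE 0.18, adjusted p = 0.00458). Vwf, the adhesive von Willebrand factor, ran from 59.7 to 180 CPM (median 82.7) against 161.6 to 324.05 CPM (median 245.6). It overlapped only through control mouse 2, whose Klf1+ Itga2b+ sum was the highest of the 8 (log2 fold change -1.47, SE 0.14, adjusted p = 0.00241).

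Among the other platelet genes, Itgb3, the integrin chain that pairs with Itga2b, ran from 38.7 to 89.2 CPM (median 80.2) against 79.5 to 171.7 CPM (median 134.9), with a log2 fold change of -0.98 (SE 0.09, adjusted p = 0.00241). Selp, the adhesion receptor P-selectin, ran from 41.3 to 91.97 CPM against 100.2 to 196.9 CPM with no overlap (log2 fold change -1.07, SE 0.13). Mmrn1, a granule protein that binds factor V, had a log2 fold change of -1.06 (SE 0.16), and Slc35d3, a protein needed for platelet dense granules, one of -2.15 (SE 0.41). Gp9, a chain of the von Willebrand factor receptor, did not pass (log2 fold change -0.28, SE 0.10, adjusted p = 0.224). With 500 CPM of Itga2b or more, 6 of the group still passed as lower, among them Pf4, Vwf and Itgb3. Without 1 mouse, 10 to 16 of the 36 passed as lower. Slc35d3 lost its call in 7 and Mmrn1 in 4 of the 8 omissions of a mouse.

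None of 15 megakaryocyte transcription factors passed, although 8 had an unadjusted p under 0.05 and DESeq2 called 5 lower and 1 higher. Fli1, the Ets factor set against Klf1 in this lineage choice, had a median of 293.3 CPM and a highest sum of 400 CPM, against a median of 367.4 CPM and a highest of 434.3 CPM. It was lower in 7 of 8 mice, with a log2 fold change of -0.29 (SE 0.07, adjusted p = 0.07). The list's median log2 fold change was -0.18.

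Of 19 stem cell genes tested, 1 rose and 1 fell, 8 had an unadjusted p under 0.05, 14 had a negative fold change, and the median log2 fold change was -0.63. Their summed level was higher in the Klf1+ Itga2b+ wells of 7 mice, at 1421 to 2079 CPM against 1251 to 1926 CPM. Txnip, an inhibitor of thioredoxin, rose (log2 fold change 0.45, SE 0.06) and Esam, an endothelial adhesion molecule of stem cells and platelets, fell (log2 fold change -1.13, SE 0.16), each in all 8 mice. None of 24 S phase genes and none of 21 G2/M genes passed, with 1 and 0 at an unadjusted p under 0.05. DESeq2 called none of either. Mki67, a marker of dividing cells, stood at 221.8 ± 110 CPM against 178.9 ± 62.6 CPM (SD, n = 8 mice; log2 fold change 0.27, SE 0.22, adjusted p = 0.686). At 50 CPM or more it was seen in 40.3% of Klf1+ Itga2b+ wells and 39.4% of the others.

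The genes outside the lists that rose most included Scin, Trib2, Gm15915 and Rab44. Scin, an actin-severing protein named scinderin, ran from 27 to 126.01 CPM (median 66.2) against 0.66 to 22.3 CPM (median 7.67), without overlap (log2 fold change 3.22, SE 0.42, adjusted p = 0.0094). Trib2, a pseudokinase, ran from 18.5 to 73.7 CPM (median 36.04) against 1.14 to 7.13 CPM (median 5.39), without overlap (log2 fold change 3.06, SE 0.24, adjusted p = 0.00117). Rab44, a Rab GTPase, had a log2 fold change of 2.67 (SE 0.26) and Gm15915, a gene with no named product, one of 2.70 (SE 0.30). Scin and Rab44 were low in most CFU sums, with medians over mice of 0.07 and 0.05 CPM, although Scin reached 73.2 CPM in depleted mouse 3 and Rab44 14.03 CPM in control mouse 4. In HSC the medians were 0 and 0.02 CPM.

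Those that fell most outside the lists included Serpine2, Lhfp, Tmem273, Fhl1 and Kcnj5. Serpine2, a serine protease inhibitor, ran from 36.98 to 170.7 CPM (median 76.7) against 195.2 to 340.96 CPM (median 247.3), without overlap (log2 fold change -1.71, SE 0.27, adjusted p = 0.0196). The call of Serpine2 was lost without control mouse 1 or 4 or depleted mouse 1 or 4 (adjusted p of 0.0517 to 0.0614).

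The sort could also hold cells of other lineages, and their markers were counted. Of 12 mast cell, basophil and eosinophil genes, 6 could be tested and none passed in edgeR, 1 had an unadjusted p under 0.05, and DESeq2 called 2 higher; all 6 had positive fold changes, with a median log2 fold change of 1.92. Their summed level ran from 55.001 to 340 CPM (median 118.4) in the Klf1+ Itga2b+ wells and from 36.5 to 1550 CPM (median 74.5) in the others, with Tpsb2 and Epx at 0 in both. Wells with 50 CPM or more of Fcer1a, Ms4a2 or Cpa3 made up 33.2% of the Klf1+ Itga2b+ wells and 23.6% of the others, and the share was higher in 6 of 8 mice. Without those wells, a setting chosen after seeing the data, 1.36% of genes passed, 15 platelet genes fell and 6 early erythroid genes rose. Rab44 (adjusted p = 0.103) and Trib2 (adjusted p = 0.094) no longer passed, and Scin and Car1 did. Fewer wells entered this setting. In every alternative, this one included, the log2 fold change was at least 2.33 for Rab44 and 2.93 for Trib2.

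None of 10 neutrophil and monocyte genes, 9 macrophage genes or 3 B cell genes tested passed in edgeR, and none had an unadjusted p under 0.05. All 9 macrophage genes had a negative fold change, with a median log2 fold change of -0.89. Summed neutrophil and monocyte genes stood at 331.7 to 522.4 CPM against 415.4 to 539.03 CPM, with Cebpe at 0 in the Klf1+ Itga2b+ wells, and macrophage genes at 19.2 to 162.9 CPM against 27.8 to 200.5 CPM, with none at 0. B cell genes stood at 33.9 to 52.4 CPM against 26.8 to 49.3 CPM, with Pax5, Ms4a1 and Iglc2 at 0 in the Klf1+ Itga2b+ wells. The T and NK cell list stood at 442.3 to 571.7 CPM against 251.1 to 465.3 CPM, higher in all 8 mice, with Cd3e, Cd3g, Cd8a and Gzma at 0 in both classes and Il7r at 0 in the Klf1+ Itga2b+ wells. Nearly all of it was Nkg7, a cytotoxic granule protein, which rose from 371.5 to 510 CPM on average (log2 fold change 0.48, SE 0.07, adjusted p = 0.0144) and lost its call without depleted mouse 4. The part of these markers in the results was not tested.

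Single wells showed how the sums were made up. Car1 at 50 CPM or more was found in 94 of the Klf1+ Itga2b+ wells (24.9%), 3.70% of the other Itga2b+ wells, 97.7% of CFU and 3.12% of HSC wells. Pf4 was found in 58.6%, 82.2%, 0% and 25.8%, and Fli1 in 81.96%, 92.2%, 2.34% and 78.9%. Thinning each well to 100000 counts left these shares at 25.2%, 59.4% and 83.02% in the Klf1+ Itga2b+ wells. Gata1 was found in 83.8% of them and 74.9% of the others.

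Car1 and Pf4 were mostly held by different Klf1+ Itga2b+ wells. Pf4 was at 50 CPM or more in 27 of the 94 wells with Car1 (28.7%) and in 68.6% of those without it, and the share was lower with Car1 in all 8 mice. Vwf followed the same direction, at 13.8% with Car1 and 32.5% without. Scin had the opposite direction, at 44.7% of wells with Car1 and 10.6% of those without, again in all 8 mice. Fcer1a was in 4.26% of the wells with Car1 and 22.97% of those without. Most wells with Car1 also held Fli1, at 68.1% against 86.6% of those without Car1, and Gata1, at 92.6% against 80.9%. In all, 89 wells had neither Car1 nor Pf4 at this level. These shares describe wells that come from 8 mice and carry no test.

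The level of Klf1 within the Klf1+ Itga2b+ wells went with the same genes. Among the 95 wells with the least Klf1 (median 70.1 CPM), 9.47% had Car1, 75.8% Pf4 and 44.2% Vwf at 50 CPM or more. Among the 94 wells with the most (median 320 CPM), 53.2% had Car1, 34.04% Pf4 and 8.51% Vwf. Fli1 was in 89.5% of the former and 71.3% of the latter, Gata1 in 85.3% and 85.1%, and Mki67 in 53.7% and 34.04%. Median Itga2b was 1307 and 528.96 CPM and the median total count 1837320 and 1501550.

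Across the Klf1+ Itga2b+ wells of all mice Klf1 had a Spearman rho of -0.39 with Itga2b and -0.18 with the total count. Of 8032 genes seen at 50 CPM or more in at least 10% of these wells, S100a10 (rho 0.38), Plac8 (0.35) and Gm15915 (0.33) had the highest rho with Klf1, and Cd9 (-0.43), Pf4 (-0.40) and Rap1b (-0.39) the lowest. Genes were picked here by that value after it was seen, and the wells share plates, mice and the total count in the CPM. Cd9, a tetraspanin of platelets, was lower in the sums (log2 fold change -0.73, SE 0.08). Those sums were split by Klf1 too, so this is not separate support.

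The 51 MkP wells with Klf1 but with Itga2b under 50 CPM were set apart by the rule genes, and their shares carry no test. Their median Klf1 was 470 CPM, 82.4% had Car1, 56.9% Ermap and 3.92% Pf4 at 50 CPM or more. Gata1 was in 74.5% of them and Fli1 in 41.2%. In the Klf1+ Itga2b+ wells 2.92% had Ermap. Of the 12 Klf1+ Itga2b+ wells that reached the lower quartile of Klf1 in CFU, 11 had Car1, 3 Ermap and 2 Pf4.

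Set against CFU, the Klf1+ Itga2b+ wells held less of the erythroid genes and more of the megakaryocyte genes. Of 13233 genes, 6653 (50.3%) passed in edgeR, 3542 (26.8%) higher and 3111 (23.5%) lower in the Klf1+ Itga2b+ wells, with the mouse as a block and 16 CFU wells per mouse. An unadjusted p under 0.05 was found for 7482 (56.5%), and DESeq2 called 7566 (57.2%). Klf1 itself averaged 171.7 ± 23.1 CPM against 709.3 ± 63.7 CPM in CFU (SD, n = 8 mice). Of 24 early erythroid genes 21 were lower and 2 higher, of 13 heme synthesis genes 12 were lower, and all 4 hemoglobin genes were lower. Apoe and Mfsd2b, a sphingosine phosphate exporter, were the 2 that were higher.

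Ermap stood at 7.91 ± 4.47 CPM against 476.1 ± 114.8 CPM in CFU (log2 fold change -6.33, SE 0.50, adjusted p = 6.7e-06). Rhag, a Rhesus complex protein, stood at 5.97 ± 6.06 CPM against 404.9 ± 55.2 CPM. Car1 averaged 295.1 CPM in the Klf1+ Itga2b+ wells and 4210 CPM in CFU. Hba-a1 averaged 5.17 against 327.6 CPM. Gata1 was lower than in CFU as well (log2 fold change -0.76, SE 0.09, adjusted p = 7.74e-05), as was Epor (log2 fold change -2.14, SE 0.10).

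Megakaryocyte genes were higher in the Klf1+ Itga2b+ wells than in CFU. Of 33 platelet genes 32 were higher and none lower, and of 15 megakaryocyte transcription factors 13 were higher and 1 lower. Pf4 averaged 1018 CPM against 3.20 CPM in CFU (log2 fold change 8.21, SE 0.35) and Fli1 302.6 CPM against 3.27 CPM (log2 fold change 7.05, SE 0.71). The platelet list had a median log2 fold change of 8.03. Lists of other cells were higher than in CFU as well: 11 of 12 stem cell genes tested (median log2 fold change 7.97, 1 lower), 5 of 5 macrophage genes (median 9.20), 4 of 5 mast cell, basophil and eosinophil genes (median 7.42, 1 lower) and 5 of 7 neutrophil and monocyte genes (median 5.46). In CFU, 13 of 20 listed stem cell genes, 8 of 10 macrophage genes and 20 of 38 platelet genes averaged under 1 CPM. So did 11 of 12 mast cell, basophil and eosinophil genes. Genes this low in CFU entered the test mainly through the Klf1+ Itga2b+ wells, so their direction was largely set in advance. The part of other cells in the comparison with CFU was not tested. Of 24 S phase genes 19 were lower, and of 21 G2/M genes 17 were lower than in CFU.

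Set against HSC, 1908 of 13485 genes (14.1%) passed in edgeR, 1006 (7.46%) higher and 902 (6.69%) lower in the Klf1+ Itga2b+ wells. An unadjusted p under 0.05 was found for 3686 (27.3%), and DESeq2 called 3725 (27.6%). Of 20 stem cell genes 16 were lower and none higher: Procr, the protein C receptor of stem cells, averaged 0.29 CPM against 177.01 CPM in HSC. Of 24 S phase genes 22 were higher, and 18 to 22 without 1 mouse. Of 21 G2/M genes 10 were higher, a count that fell to 4, 3, 5 and 5 without control mouse 1, 2, 3 or 4 and was 14 without depleted mouse 2 and 8 or 9 without each other depleted mouse. Of 24 early erythroid genes 12 were higher and 2 lower, among them Car1 (log2 fold change 4.82, SE 0.56) and Samd14, a regulator of Kit signalling (log2 fold change 5.04, SE 0.69). In HSC, 7 of 25 listed early erythroid genes averaged under 1 CPM, and in the Klf1+ Itga2b+ wells 3 of 20 stem cell genes did. Genes this low in 1 class entered the test mainly through the other class, so their direction was largely set in advance. Of 35 platelet genes 14 were higher and 7 lower: Pf4 was higher (log2 fold change 3.57, SE 0.58). Vwf did not pass (log2 fold change -0.53, SE 0.40, adjusted p = 0.444). Gata1 was higher in all 8 mice, at 310 CPM against 32.9 CPM (log2 fold change 3.53, SE 0.40, adjusted p = 0.000391).

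The share of Klf1+ Itga2b+ wells did not differ detectably between treatments. In control mice 30.4%, 24.03%, 26.8% and 39.9% of kept MkP wells met the rule, and in depleted mice 34.8%, 27.2%, 26.6% and 25.3%. The ranges overlapped, with control mouse 4 the highest. Means were 30.3 ± 6.92% and 28.5 ± 4.31% (SD, n = 4 mice each), a difference of -1.79 percentage points (two-sided exact permutation p = 0.657, adjusted p = 0.771 over 2 shares). Taken over Itga2b+ wells alone, the difference was -1.34 percentage points (exact permutation p = 0.771). With 70 labelings the smallest p this design can give is 0.0286. Both differences changed sign with a Klf1 threshold of 100 CPM (0.24 and 0.65) and without control mouse 4 (1.41 and 2.55), and the second also without depleted mouse 4 (0.08). Over the 16 plates the share ran from 19.4% to 40%, and 2 plates of the same mouse differed by 0.27 to 12.4 percentage points.

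Within the Klf1+ Itga2b+ wells, none of 14712 genes (0%) passed between depleted and control mice in edgeR, 1210 (8.22%) had an unadjusted p under 0.05, and DESeq2 called 1.05%. Pf4 averaged 777 ± 278.95 CPM in depleted and 1259 ± 525.5 CPM in control mice (SD, n = 4 each), with a log2 fold change of -0.74 (SE 0.37) and an edgeR adjusted p of 0.634. Itgb3 averaged 83.2 ± 4.24 CPM in depleted and 52.9 ± 21.5 CPM in control mice (log2 fold change 0.60, SE 0.24, edgeR adjusted p = 0.567), and the ranges overlapped through control mouse 2. Car1 averaged 237.1 ± 19.9 and 353.1 ± 195.02 CPM (log2 fold change -0.65, SE 0.49), with control mouse 3 at 60.8 CPM below all depleted mice and the other control mice above them. Gata1 averaged 347.1 ± 59.6 and 272.1 ± 24.6 CPM (log2 fold change 0.29, SE 0.13), and Vwf 75.9 ± 11.1 and 106.2 ± 50.7 CPM (log2 fold change -0.53, SE 0.29). Klf1, a rule gene, averaged 180 ± 28.1 and 163.2 ± 16.1 CPM. Of 24 S phase genes 20 had a positive fold change (median log2 fold change 0.23), and of 21 G2/M genes 20 had a negative one (median -0.41). The median over all genes was 0.002, and no list was tested as a set.

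Whether the gap between the 2 classes of MkP wells differed with treatment was tested as an interaction. None of 17671 genes (0%) passed in edgeR, 4.22% had an unadjusted p under 0.05, and DESeq2 called 0.99%. All 24 S phase genes had a positive interaction (median log2 fold change 0.22), 6 of them with an unadjusted edgeR p under 0.05. The list was not tested as a set.

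The classes were compared in 5 measures of the wells, none of which passed after adjustment. Mean log10 total count was 6.17 ± 0.08 in the Klf1+ Itga2b+ wells and 6.19 ± 0.07 in the others (SD, n = 8 mice; exact sign-flip permutation p = 0.32, adjusted p = 0.534). Genes seen per well at 100000 counts averaged 4664 ± 313.2 and 4857 ± 352.6, fewer in 7 of 8 mice (exact permutation p = 0.0156, adjusted p = 0.0781 over 5 measures). Mitochondrial reads made up 2.86 ± 0.42% and 2.92 ± 0.40% (exact permutation p = 0.109, adjusted p = 0.273). With a Klf1 threshold of 100 CPM the first 2 measures passed, at differences of -0.0624 and -322 (adjusted p = 0.0391 each). No doublet caller was run, and the part of doublets in the results was not tested.

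No difference in clonal barcodes was detected. A barcode was called in 89.9% of Klf1+ Itga2b+ wells and 89.4% of the others, and over mice the difference was 0.32 percentage points (exact permutation p = 0.836, adjusted p = 0.836). The effective number of barcodes, a whole number that the authors deposited beside the Shannon index, averaged 1.69 ± 0.94 and 1.63 ± 0.75 in barcoded wells (exact permutation p = 0.734, adjusted p = 0.836). Pooled over mice, more than 1 effective barcode was found in 39.2% and 34.3% of barcoded wells, which was not tested. The mean number per mouse ran from 1 to 3.88 and from 1 to 3.14, so the pooled shares also depend on how many wells each mouse gave.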

How the data were processed

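Marrow cells were sorted singly by flow cytometry and turned into Smart-seq2 libraries using Nextera reagents, per the labels' protocols. The method reads whole transcripts without molecular identifiers, so counts are reads after amplification. The authors deposited raw counts per gene and well; the submitters' processing notes name Trim Galore 0.5, STAR 2.6.0 and HTSeq 0.6.1 without roles. Genome build and strand setting: not given in the sources used here, so overlapping genes may share reads. The matrix has 55401 gene rows and 3070 columns, of which 1 matched no sample title and was not used; symbols on several rows were summed. A second deposited table lists 2860 wells of 1000 to 9922 genes with total counts, barcode reads, a barcode call and the Shannon index, a diversity score, per the file headers. Of its MkP wells, 1419 were read; 1289 had at least 20000 counts, 1000 to 10000 genes and at most 20% mitochondrial counts, and 130 were left out. Kept wells were searched for pairs with the same total and gene number, and 0 were found.

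CFU and HSC references were 16 evenly spaced kept wells of each mouse, fewer than the all-wells design written at the start. Members and gene lists were chosen with earlier results of these data known. Sums per mouse held 53908431 to 104026779 counts for the Klf1+ Itga2b+ wells, 100956929 to 226997300 for the other Itga2b+ wells, 29621552 to 48471649 for CFU and 10713983 to 33111303 for HSC. Log2 fold changes and adjusted p (Benjamini-Hochberg over all genes but Klf1 and Itga2b) came from edgeR 4.0.16 quasi-likelihood tests in R 4.3.3 after filterByExpr and TMM scaling; the SE is the fold change over the root of F. The block is the mouse, since both classes come from the same animal; depleted against control within the class has none. Levels are CPM of each mouse's sum. DESeq2 1.42.0, no expression filter, wells thinned to 100000 counts, Klf1 thresholds of 25 and 100 CPM, 100 CPM or more against 10 CPM or less, no block and leaving out each mouse were alternatives, and 2 settings were added after seeing the data. Shares and well measures were compared with two-sided exact permutation tests.

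Named genes were, per list, up to 6 called genes with the largest changes and defining genes that did not pass, and, outside the lists, up to 10 in each direction with a mean of 8 CPM or more and the same direction in 8 mice. Scripts were tested on simulated data.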

Additional observations from a re-analysis of the deposited data

Results flagged for a closer look

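Within the 8 mice, 6 values of genes in the Klf1+ Itga2b+ wells lay apart from the rest by Dixon's test, of 44 groups of values examined; chance gives about 1 in 20. Control mouse 2 had 180 CPM of Vwf against a median of 82.7 CPM over the 8 mice, and 222.3 CPM of Mmrn1 against 95.4 CPM. Control mouse 3 had 43.5 CPM of Ces2g against a median of 91.8 CPM. Control mouse 1 had 90.3 CPM of Gm15915 against 54.5 CPM, depleted mouse 1 had 75.7 CPM of Rab44 against 40.3 CPM, and depleted mouse 4 had 15.99 CPM of St14, a membrane serine protease, against 5.90 CPM.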

How the results depend on the processing

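Of tested genes, 1.43% differed between Klf1+ Itga2b+ and other Itga2b+ wells. DESeq2 called 8.88%, thinning to 100000 counts gave 3.02%, a Klf1 threshold of 100 CPM 2.67%, 100 CPM or more against 10 CPM or less 2.70%, and Itga2b of 500 CPM or more 0.33%; the cause was not tested. Leaving out 1 mouse gave 0.467% to 1.33%, with 7 pairs in place of 8. Without the replicate block 0.936% passed, which held 52.9% of the genes called with it; mice are the pairs. No filter gave 0.609% of 27405 genes, a threshold of 25 CPM 1.36%. DESeq2 kept 99.5% of the calls, and no setting turned the direction of a called gene that it tested. Of 37 named called genes, Apoe, Esam, Itgb3, Pf4 and Vwf passed under each alternative, and 17 passed without each mouse. Mki67, not called, turned to -0.0557 at a threshold of 100 CPM and -0.0906 at Itga2b of 500 CPM or more.

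Between treatments, edgeR called 0 genes within the class and 0 in the interaction under each alternative, DESeq2 1.05% and 0.99%. Against HSC, DESeq2 called 27.6% in place of 14.1%, and leaving out 1 mouse gave 10.4% to 12.7%. Share differences, -1.79 and -1.34 percentage points, became 0.236 and 0.648 at a threshold of 100 CPM and ranged from -3.91 to 1.41 and from -3.81 to 2.55 without 1 mouse. The restriction to wells of the deposited table changes nothing, since all kept wells are in it. The barcode share difference, 0.315 percentage points, turned to -0.00367 at a threshold of 25 CPM and ranged from -0.32 to 1.68 without 1 mouse; that of the effective barcode number, 0.0588, ranged from -0.0391 to 0.119. At 100 CPM total counts and gene numbers passed (-0.0624 and -322). CFU and HSC sums are shallower, which limits genes of low level.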
